A study of Mus musculus with 2 samples.

Results

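The cyclin-dependent kinase inhibitors comprise 7 genes among the 32286 features measured in skin cells of mouse embryos at E13.5, and they were taken by symbol: Cdkn1a, Cdkn1b, Cdkn1c, Cdkn2a, Cdkn2b, Cdkn2c and Cdkn2d. All 7 were present in both matrices, and the rule uses their symbols and no measured value, although the family was proposed with earlier results of these data known. Single-cell transcripts were counted in 2 libraries. The mutant library came from dorsolateral skin of embryos that joined Axin2CreER, a tamoxifen-inducible recombinase in Wnt-responding cells, with a Rosa SmoM2YFP allele, which after removal of its stop cassette encodes a constitutively active Smoothened tagged with a yellow fluorescent protein. The control library came from littermates titled as control with SmoM2YFP, and whether these carried the recombinase is not given in the sources used here. Each library pooled 2 to 3 embryos, so the groups have 1 sample each. No difference below has a replicate check or a p-value, and every interval is an exact 95% interval for counting error only.

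These proteins brake the cell cycle by 2 routes. The Cip/Kip members p21 (Cdkn1a), p27 (Cdkn1b) and p57 (Cdkn1c) bind cyclin-CDK complexes of several kinds, whereas the INK4 members p16 (Cdkn2a), p15 (Cdkn2b), p18 (Cdkn2c) and p19 (Cdkn2d) bind CDK4 and CDK6 and keep them from D-type cyclins. p21 is a classical target of p53 and also marks cells that leave the cycle in differentiation, p57 is encoded by an imprinted gene active in embryonic mesenchyme and muscle, and p27 is set largely by protein turnover. In developing skin the dermal condensate, the precursor of the hair follicle papilla, is a group of fibroblasts that has stopped dividing and expresses Cdkn1a.

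Because Cdkn1a is the member whose level differed most between the libraries, and because p53 targets were measured beside it, its upstream RefSeq promoter is shown (GRCm38.p6, plus strand, chr17:29090729-29091028, reaching from 250 bases before to 50 bases after the annotated start). Capitals mark 2 CATG cores with 6 bases between them and those 6 bases, the spaced core pair of a p53 element.
Cdkn1a promoter: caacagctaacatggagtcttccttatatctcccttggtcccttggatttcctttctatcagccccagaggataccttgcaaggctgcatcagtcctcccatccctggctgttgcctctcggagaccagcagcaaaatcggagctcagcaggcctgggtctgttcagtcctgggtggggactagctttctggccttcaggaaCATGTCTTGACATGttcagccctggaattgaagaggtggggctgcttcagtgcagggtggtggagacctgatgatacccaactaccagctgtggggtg
This pair of cores, searched on both strands, lies at positions -48 to -35 from that start and overlaps no other motif searched. It occurs in 234 of 32851 RefSeq promoters of the same length (0.712%). Promoter windows were found for 6 of the 7 genes, Cdkn1c being the one without an entry, and 9 windows in all were searched. None of the 9 held the GLI letters GACCACCCA (0.253% of all promoters), the E2F letters TTTCGCGC (0.323%) or the TCF/LEF core CTTTGA (16.0%). The GC box GGGCGG, which 35.7% of promoters hold, was present in windows of all 6 genes. A match is a description of letters and says nothing of binding in these cells.

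In GRCm38 coordinates (GENCODE M21) Cdkn1a (ENSMUSG00000023067) lies on chromosome 17 at 29090976 to 29100727 on the plus strand and Cdkn1b (ENSMUSG00000003031) on chromosome 6 at 134920401 to 134925513 on the plus strand. Cdkn1c (ENSMUSG00000037664) is a minus-strand gene of chromosome 7, at 143458339 to 143461050. Cdkn2a and Cdkn2b are neighbours on chromosome 4 at 89274471 to 89294653 and 89306299 to 89311039, and Cdkn2c is on the same chromosome at 109660876 to 109667189, all on the minus strand. Cdkn2d (ENSMUSG00000096472), also on the minus strand, spans 21288410 to 21291407 of chromosome 9. All are protein-coding. The annotation places a gene on the opposite strand over part of Cdkn1a and an antisense gene, Gm44732, over part of Cdkn1c, and the strand setting of the counting is not given in the sources used here.

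After filtering, 8514 mutant and 11529 control cells remained, with medians of 6661 and 7441 unique molecular identifiers (UMIs, each a counted transcript) per cell. The 2 libraries shared 37 barcodes among kept cells. Titles and genotype fields disagree about which library is which, and the reporter goes with the titles: eYFP had 935 UMIs in mutant dermal-like cells and 26 UMIs in control dermal-like cells, and Ptch1, a direct Hedgehog target, had 248 CPM and 5.47 CPM (UMIs per 1000000). Clusters were named from fixed markers after the 7 genes, Mki67 and Top2a had been kept out of the clustering, and gave 10 classes, each written without its "-like" from here on. The dermal class, in which all 8 of its markers reached 10 CPM in both libraries, held 5077 mutant and 8581 control cells. The libraries occupied largely different dermal clusters: mutant cells lay mostly in clusters 4, 6, 8 and 0, and control cells mostly in clusters 1, 0, 3, 5, 2 and 10. Marker sums of other classes in dermal cells were 52.0 against 44.0 CPM (mutant against control) for 9 epidermal markers, 12.9 against 17.2 CPM for 8 muscle markers and 989 against 206 CPM for 8 erythroid markers. The part of this erythroid RNA in the results was not tested.

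In dermal cells of the mutant library Cdkn1a was 19.4-fold higher (interval 17.7 to 21.2), Cdkn1b was 1.68-fold lower (1.501 to 1.89), and Cdkn1c and Cdkn2d stayed within 1.5-fold. Of the 7 members, 4 reached 10 CPM in either library, the level set for a call, and of these 1 was higher and 1 lower by at least 1.5-fold. Among all 8160 genes at that level, 4.53% were higher and 4.83% lower. The typical gene hardly moved, with a median log2 ratio of 0.01.

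Cdkn1a had 5385 UMIs in mutant dermal cells and 540 UMIs in control dermal cells, or 168 CPM (164 to 173) against 8.69 CPM (7.97 to 9.45). When each cell was thinned to 3000 UMIs, 22.8% of 4734 mutant cells (21.6 to 24.0) and 2.29% of 8305 control cells (1.98 to 2.63) had a Cdkn1a UMI. Without thinning these shares were 29.1% and 4.32%. In epidermal cells, where few Cdkn1a transcripts were found, the thinned share was 1.10% in both libraries (0.62 to 1.80 in mutant, 0.40 to 2.37 in control cells). Both dermal values lie above it, but the control dermal and control epidermal intervals overlap. The median depth was 5893 (mutant) and 6888 UMIs (control) in the dermis, and 7657 (mutant) and 9783 UMIs (control) in the epidermis.

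The Cdkn1a transcripts were concentrated in part of the dermis. The 10% of mutant dermal cells with most of them held 66.2% of the Cdkn1a UMIs, with up to 24 in a cell, whereas the 10% of cells with most Cdkn1c held 30.1% of its UMIs. In the 3 clusters that were almost wholly mutant, Cdkn1a stood at 453 CPM in cluster 4 (1280 cells), 161 CPM in cluster 6 (1233 cells) and 34.7 CPM in cluster 8 (1064 cells). Cluster 4 was led by Gal and Foxd1, and Cdkn1a itself was among its 10 leading genes although it took no part in the clustering. Cluster 6 was the dividing one, with 87.2% of thinned cells holding a Mki67 or Top2a UMI, against 15.6% in cluster 4.

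The difference was also present where the 2 libraries shared a cluster. In the 6 dermal clusters with at least 50 cells of each library (1500 mutant and 8575 control cells), Cdkn1a was higher in mutant cells of every one. It measured 262 CPM in mutant and 30.02 CPM in control cells of cluster 3, an 8.74-fold ratio (6.73 to 11.2). In cluster 1 the mutant cells had 145 CPM and the control cells 1.07 CPM, a ratio of 136 (79.0 to 252). Mutant and control cells of cluster 0 had 13.8 and 1.66 CPM, a ratio of 8.31 (4.85 to 14.8). The other 3 shared clusters gave ratios of 19.5 (8.53 to 52.3) in cluster 2, 10.7 (7.80 to 14.5) in cluster 5 and 8.80 (5.73 to 13.3) in cluster 10. Summed over the 6 clusters, the log2 ratio was 2.46, against 4.28 over all dermal cells. This pooled value lies below the ratio of every single shared cluster, and the libraries filled these clusters unequally. Cluster 0, where mutant Cdkn1a was lowest, held 783 of those 1500 mutant cells and 1886 of those 8575 control cells.

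**Figure D1:**
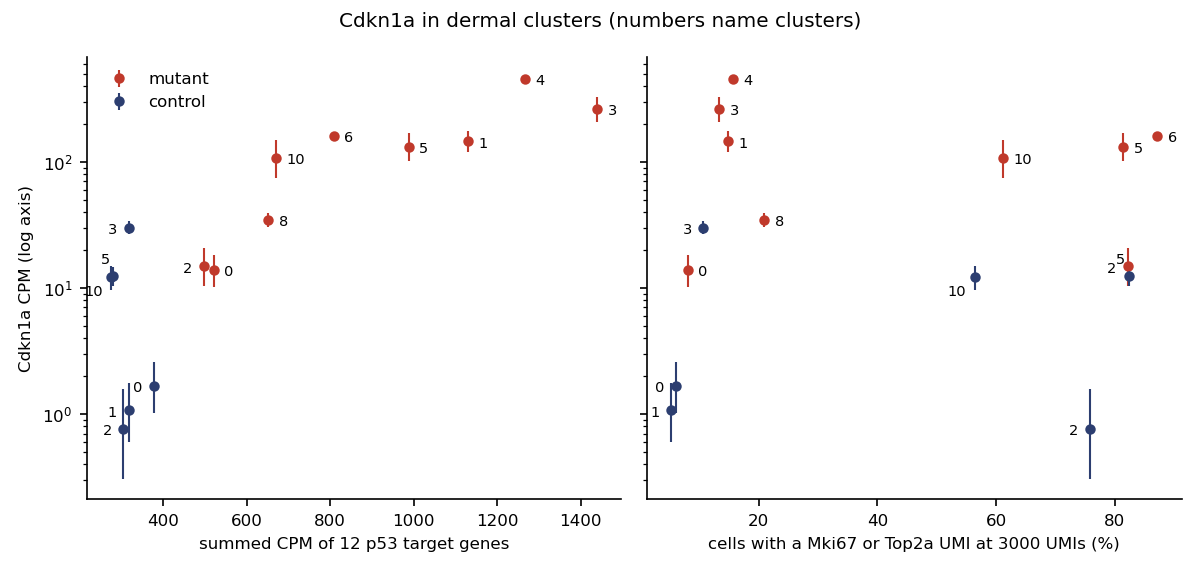
Cdkn1a in CPM (log axis) in each dermal cluster with at least 50 cells of a library, against the summed CPM of 12 other p53 target genes (left) and against the percent of thinned cells with a Mki67 or Top2a UMI (right). Red points are mutant and blue points control cells, bars are exact 95% Poisson intervals, and numbers name clusters; mutant cluster 4 is highest at 453 CPM, with 15.6% of its cells holding a cycling UMI, while control clusters lie between 0.76 and 30.02 CPM.

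Dermal cells were next split by the number of 9 condensate genes (Sox2, Sox18, Foxd1, Gal, Trps1, Tbx18, Prdm1, Bmp4 and Inhba) with a UMI, at 3000 UMIs per cell. In mutant cells Cdkn1a stood at 95.5 CPM with 0 such genes, 170 CPM with 1 and 521 CPM with 2 or more. In control cells the same steps gave 5.78, 15.6 and 25.3 CPM. Cells with 2 or more over cells with 0 differed 5.46-fold in the mutant library (4.99 to 5.97) and 4.38-fold in the control library (2.77 to 6.71), and the intervals overlap. The genes behind the steps differed between the libraries: over the whole dermis Foxd1, Tbx18 and Gal had most UMIs of the 9 in mutant cells (79.7, 71.3 and 68.6 CPM), and Inhba, Bmp4 and Tbx18 in control cells (68.3, 48.0 and 23.5 CPM). In control cells Foxd1, Gal, Sox18 and Trps1 lay between 0.45 and 1.93 CPM. At this contrast 11% of tested genes were higher and 8.5% lower in mutant cells, and 7.26% higher and 7.15% lower in control cells. Cells with a Cdkn1a UMI made up 13.3%, 20.9% and 53.5% of mutant cells along the 3 steps. Cdkn1c ran the other way, at 3174, 2524 and 1898 CPM in mutant cells and 2502, 1716 and 1291 CPM in control cells. The share of cells with a Mki67 or Top2a UMI was 39.7%, 43.9% and 37.3% along the mutant steps and 29.9%, 34.7% and 38.8% along the control steps. Among cells without such a UMI, the Cdkn1a step from 0 to 2 or more genes was 6.24-fold in mutant (5.59 to 6.97) and 5.55-fold in control cells (3.23 to 9.18).

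**Figure D2:**
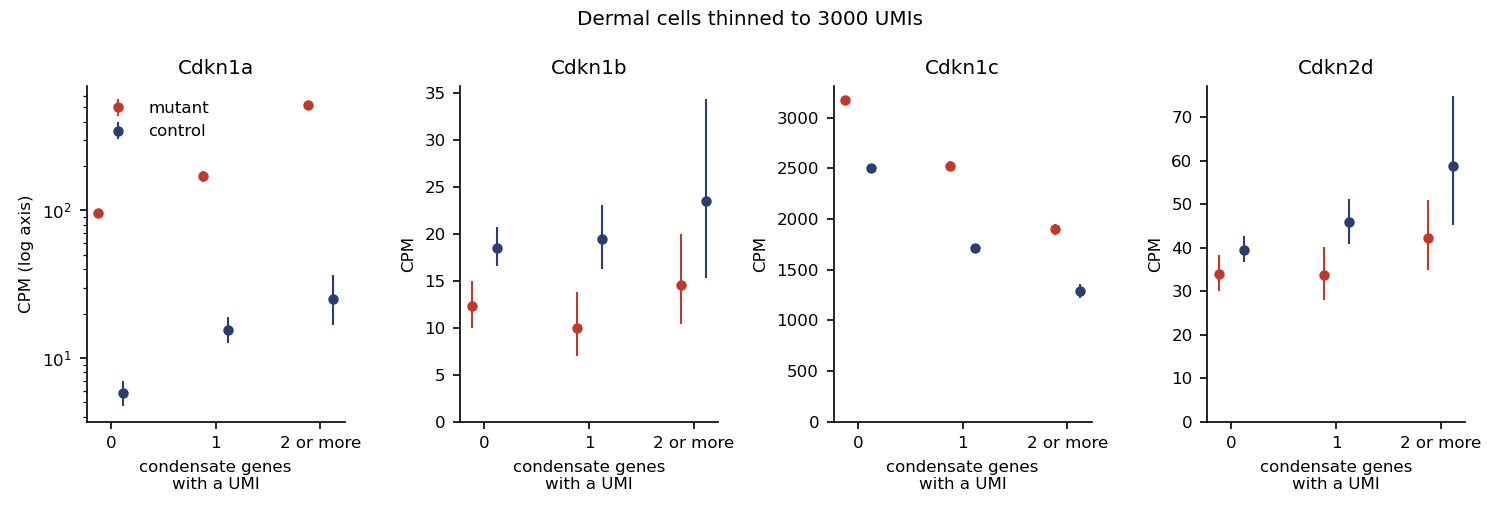
Levels of Cdkn1a (log axis), Cdkn1b, Cdkn1c and Cdkn2d (linear axes) in CPM in dermal cells with a UMI of 0, 1 or 2 or more condensate genes, each cell thinned to 3000 UMIs. Red is mutant, blue is control and bars are exact 95% Poisson intervals; Cdkn1a climbs along the steps in both libraries, to 521 CPM in mutant and 25.3 CPM in control cells, and Cdkn1c declines in both.

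Other p53 targets were higher alongside Cdkn1a. Of 12 such genes 11 were tested in dermal cells, and 10 were higher, none lower and 1 within 1.5-fold, beside 4.53% of all genes higher. This list, like the other gene lists here, was chosen with earlier results of these data known. Their median log2 ratio, with 1 CPM added to both values, was 1.91. Eda2r was 13.9-fold higher, at 10.3 against 0.74 CPM. Sesn2, which encodes the stress protein sestrin, was 8.70-fold higher, at 13.2 against 1.51 CPM. Trp53inp1 (5.78-fold), the cyclin G gene Ccng1 (4.77-fold), Phlda3, an inhibitor of Akt (4.14-fold), and the RNA-binding protein gene Zmat3 (4.09-fold) followed. The apoptosis genes Bbc3 and Bax were 3.43-fold and 1.98-fold higher, the nuclease gene Aen 2.96-fold and the antiproliferative gene Btg2 2.24-fold. Mdm2, the ubiquitin ligase of p53, stood at 30.5 CPM in mutant against 21.5 CPM in control dermis, 1.42-fold (1.31 to 1.54). Gdf15 was below the level tested.

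The 12 genes summed to 833 CPM in mutant and 316 CPM in control dermal cells. In epidermis and muscle the sums were closer, at 414 and 414 CPM in mutant and control epidermal cells and 409 and 391 CPM in mutant and control muscle cells. Mutant against control sums were 459 against 232 CPM in erythroid, 539 against 397 CPM in mural and 469 against 383 CPM in macrophage cells. They were 408 against 349 CPM in mast, 438 against 417 CPM in endothelial and 434 against 426 CPM in Schwann and glia cells. Melanoblasts went the other way, at 376 against 430 CPM. None of 7 tested genes of the list in epidermis and none of 6 in muscle passed 1.5-fold, where 4.19% and 2.3% of all genes were higher. Within the mutant dermis the sum was highest in cluster 3 (1440 CPM, 66 cells), followed by clusters 4 (1267 CPM), 1 (1130 CPM), 5 (988 CPM), 6 (809 CPM), 10 (672 CPM), 8 (652 CPM), 0 (522 CPM) and 2 (497 CPM). The highest sum and the highest Cdkn1a thus lay in different clusters. Mutant clusters 2 and 0, with the lowest sums, were also those with the lowest Cdkn1a.

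Splitting thinned dermal cells by the UMIs they held of these 12 genes, a split made after the list's values were seen, gave higher Cdkn1a at the last step in both libraries. Cdkn1a stood at 58.9 CPM in mutant cells with 0 or 1 such UMI, 96.5 CPM with 2 or 3, and 576 CPM with 4 or more. In control cells it was 8.78, 8.19 and 39.4 CPM. The 169 control cells in the last step held 20 Cdkn1a UMIs, so that value is loose (24.1 to 60.9 CPM). Cdkn1c stood at 3115 CPM in mutant cells with 0 or 1 of these UMIs and 1849 CPM in those with 4 or more, while control cells had 2175 and 2682 CPM at the same steps. Immediate early and heat shock genes, which dissociation can raise, were higher for 3 of 9 tested genes in the mutant dermis, beside 4.53% of all genes: Ier2 (2.66-fold), Egr1 (1.97-fold) and Junb (1.53-fold). Their list summed to 1096 and 907 CPM in mutant and control dermal cells, and its part in the Cdkn1a level was not tested. Along the condensate steps this sum was 1249, 1072 and 955 CPM in mutant cells and 969, 829 and 734 CPM in control cells. Along the steps of p53 target UMIs it was 1103, 1197 and 1181 CPM in mutant cells and 894, 989 and 1195 CPM in control cells.

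Few members passed the fold outside the dermis, and in the rarer classes many genes did. None of 3 tested members in the epidermis and none of 4 in muscle was past it, where 4.19% and 2.3% of all genes were higher and 2.72% and 1.07% lower. In macrophages 1 of 5 tested members was higher (5.13% of all genes higher, 4.11% lower), and in Schwann and glia cells 2 of 5 were (8.45% higher, 6.1% lower). Mural cells had 1 of 4 higher (5.65% higher, 6.09% lower), mast cells 1 of 4 lower (6.03% higher, 6.57% lower) and endothelial cells 0 of 3 past the fold (7.02% higher, 8.36% lower). The erythroid class had 1 higher and 1 lower of 4 (15.5% higher, 11.6% lower), and the melanoblasts 2 higher of 4 (22.8% higher, 16.6% lower).

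Outside the dermal and erythroid classes, Cdkn1a was highest in muscle and mast cells of both libraries. Muscle cells had 143 CPM in the mutant library and 117 CPM in the control library, within 1.5-fold. Mast cells had 99.7 and 90.9 CPM, with a thinned share of 27.5% in mutant and 27.03% in control cells. Endothelial and melanoblast cells held at most 9 Cdkn1a UMIs in a library. The lowest sums in the control library, melanoblast, mural, endothelial and epidermal, ranged from 0 to 2.42 CPM, and their intervals overlap. Macrophages stood at 36.5 CPM in the mutant library and 22.4 CPM in the control library, 1.63-fold higher (1.22 to 2.19). In Schwann and glia cells 11 mutant and 14 control UMIs gave a ratio of 2.30 with an interval that includes 1 (0.95 to 5.46).

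Mural cells of the mutant library had 33 Cdkn1a UMIs against 4 in the control library, 22.7 against 1.28 CPM (ratio 17.8, interval 6.34 to 69.3). A single mutant cell held 8 of the 33. Mural cells also carried the dermal markers, summing to 4389 CPM in mutant and 5670 CPM in control cells, and 9 eYFP UMIs in mutant cells against none in control cells. In the erythroid class Cdkn1a was 102 CPM in mutant cells (269 UMIs) and 14.4 CPM in control cells (15 UMIs, 8.08 to 23.8 CPM). A single control erythroid cell held 10 of the 15. The dermal markers summed to 2699 and 2766 CPM in mutant and control cells of this class. The part of dermal RNA in the mural and erythroid values was not tested.

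In muscle, Cdkn1a followed differentiation in both libraries. Thinned cells with a UMI of Myog, a regulator of terminal muscle differentiation, had 263 CPM (249 UMIs in 315 cells) in the mutant library and 321 CPM (336 UMIs in 349 cells) in the control library. Progenitors, with a UMI of Pax7 and none of Myog, had 1 UMI in 114 mutant cells and 0 UMIs in 114 control cells. The mutant ratio of Myog-positive over Pax7-positive cells was 90.1 (16.0 to 3573), and the control ratio was at least 36.6-fold, taken against a floor of 3 UMIs in the control progenitors, while its exact interval begins at 29.6. Both ratios rest on at most 1 progenitor UMI. Cdkn1c was higher in the same cells by 1.66-fold in the mutant library (8690 against 5222 CPM) and by 1.77-fold in the control library (8051 against 4558 CPM). In that contrast 16.5% of tested genes were higher and 31.9% lower in mutant cells, and 15.6% higher and 33.4% lower in control cells. Epidermal cells with a UMI of Krt1 or Krt10, markers of the suprabasal layer, had 8 Cdkn1a UMIs in 291 mutant cells and 2 in 99 control cells, against 7 in 1076 mutant and 4 in 448 control cells without one. The ratios were 4.23 (1.34 to 13.7) in mutant and 2.26 (0.20 to 15.8) in control cells.

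**Figure D3:**
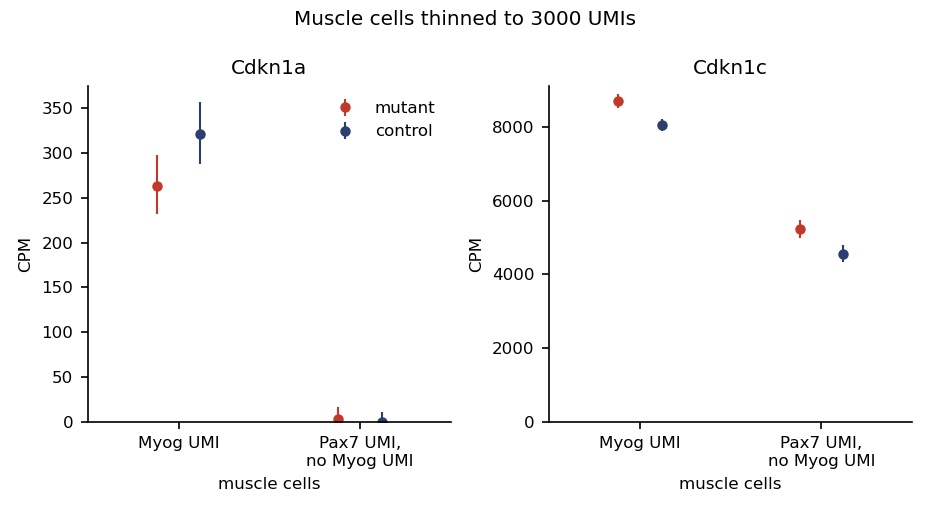
Cdkn1a and Cdkn1c in CPM in muscle cells with a Myog UMI and in muscle cells with a Pax7 UMI and no Myog UMI, each cell thinned to 3000 UMIs. Red is mutant, blue is control and bars are exact 95% Poisson intervals; Cdkn1a is at 263 and 321 CPM in mutant and control Myog-positive cells and rests on 1 and 0 UMIs in mutant and control progenitors.

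Cdkn1b was low in every class, between 9.64 CPM in mutant mural cells and 41.4 CPM in mutant melanoblast cells, and classes differed: control Schwann and glia cells had 38.6 CPM (31.4 to 47.0) and control muscle cells 11.8 CPM (10.1 to 13.7). Its dermal level was 12.1 CPM (388 UMIs) in the mutant library and 20.4 CPM (1268 UMIs) in the control library. The thinned share of dermal cells with a UMI was 3.59% in mutant and 5.41% in control cells. Within clusters the ratio was 0.74 (0.52 to 1.03) in cluster 0 and 0.55 (0.39 to 0.75) in cluster 2, but 1.36 (0.66 to 2.49) in cluster 1. It was 0.54 (0.22 to 1.13) in cluster 5 and 0.89 (0.35 to 1.87) in cluster 10. Mutant cells of cluster 3 held 0 UMIs (ratio 0, upper limit 0.78). Over the 6 shared clusters the log2 ratio was -0.49, which does not reach 1.5-fold. Outside the dermis Cdkn1b passed the fold in the erythroid class alone, at 12.9 CPM in mutant and 21.2 CPM in control cells (ratio 0.61, 0.35 to 1.09). For comparison, mutant and control epidermal cells had 17.4 and 18.9 CPM, and mutant and control muscle cells 10.4 and 11.8 CPM. Of 7 genes for p27 turnover and transcription 6 were tested in dermal cells, where 4.53% of all genes were higher and 4.83% lower. Only Foxo1, a forkhead factor that activates the Cdkn1b gene, was past the fold, 1.54-fold higher. Skp2, which marks p27 for degradation, stood at 67.4 CPM in mutant and 57.5 CPM in control dermal cells.

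Cdkn1c was by far the most counted member, and the following levels are CPM, counted at 3′ ends and not scaled by length. Of all UMIs of the family it made up 92.4% in the mutant dermis and 96.4% in the control dermis, while Cdkn1a made up 5.83% in the mutant dermis and 0.38% in the control dermis. Dermal Cdkn1c stood at 2664 CPM in the mutant and 2184 CPM in the control library, 1.22-fold (1.21 to 1.23), with a median of 13 and 11 UMIs per cell. The classes were ordered alike in both libraries at the top, with muscle first (6330 CPM in mutant, 5319 CPM in control cells). Dermal, mural and erythroid cells came next, with sums between 1145 and 2664 CPM. The dermal markers summed to 2699 and 2766 CPM in mutant and control erythroid cells, and to 4389 and 5670 CPM in mural cells. The part of dermal RNA in the mural and erythroid Cdkn1c sums was not tested. Macrophages were lowest, at 24.7 CPM in mutant and 30.8 CPM in control cells, and these intervals overlap.

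Within the dermis Cdkn1c varied widely by cluster and little by library. Cluster 0 had 5440 CPM in mutant and 4207 CPM in control cells, and cluster 3 had 636 and 668 CPM. The within-cluster ratios ran from 0.95 (0.82 to 1.10) in cluster 3 to 1.40 (1.37 to 1.43) in cluster 2. Summed over the 6 shared clusters the log2 ratio was 0.93, past 1.5-fold although no single cluster passed it. Cluster 0, where the gene was highest, held 783 of those 1500 mutant cells and 1886 of those 8575 control cells. Mutant cluster 4, highest for Cdkn1a, had 1457 CPM of Cdkn1c. At 3000 UMIs, 83.0% of mutant dermal cells with a Cdkn1a UMI also had a Cdkn1c UMI, against 94.99% of those without one, and in control cells the shares were 74.7% and 92.1%.

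Among the imprinted neighbours of Cdkn1c on chromosome 7, 4 of 6 were tested in dermal cells and only Phlda2, a placental growth regulator, passed the fold, 2.04-fold higher, beside 4.53% of all genes higher and 4.83% lower. Kcnq1ot1, the long noncoding RNA of the same imprinted domain, had a ratio of 1.02. Igf2 and H19, from the adjoining domain, had ratios of 1.21 and 1.05.

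In smaller classes Cdkn1c passed the fold in both directions. In Schwann and glia cells it was 1.65-fold higher (1.49 to 1.83), at 682 CPM in mutant and 413 CPM in control cells. Mast cells of the mutant library had 46.7 CPM and those of the control library 90.2 CPM, 1.93-fold lower in mutant cells. A single control mast cell held 28 of the 138 control UMIs. With doublets kept, 0 members passed the fold in mast cells, and 2 did when cells were thinned to 3000 UMIs. Melanoblast cells showed 271 CPM in the mutant library (72 UMIs in 50 cells) and 48.5 CPM in the control library (23 UMIs in 59 cells). A single mutant melanoblast held 36 of the 72 UMIs, and the thinned share of cells with a UMI was 13.2% in mutant and 10.3% in control cells. Dermal markers summed to 811 CPM in mutant and 593 CPM in control Schwann and glia cells. Their sums were 45.0 and 158 CPM in mutant and control mast cells, and 26.3 and 54.8 CPM in melanoblasts. The part of dermal RNA in these Cdkn1c values was not tested.

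**Figure D4:**
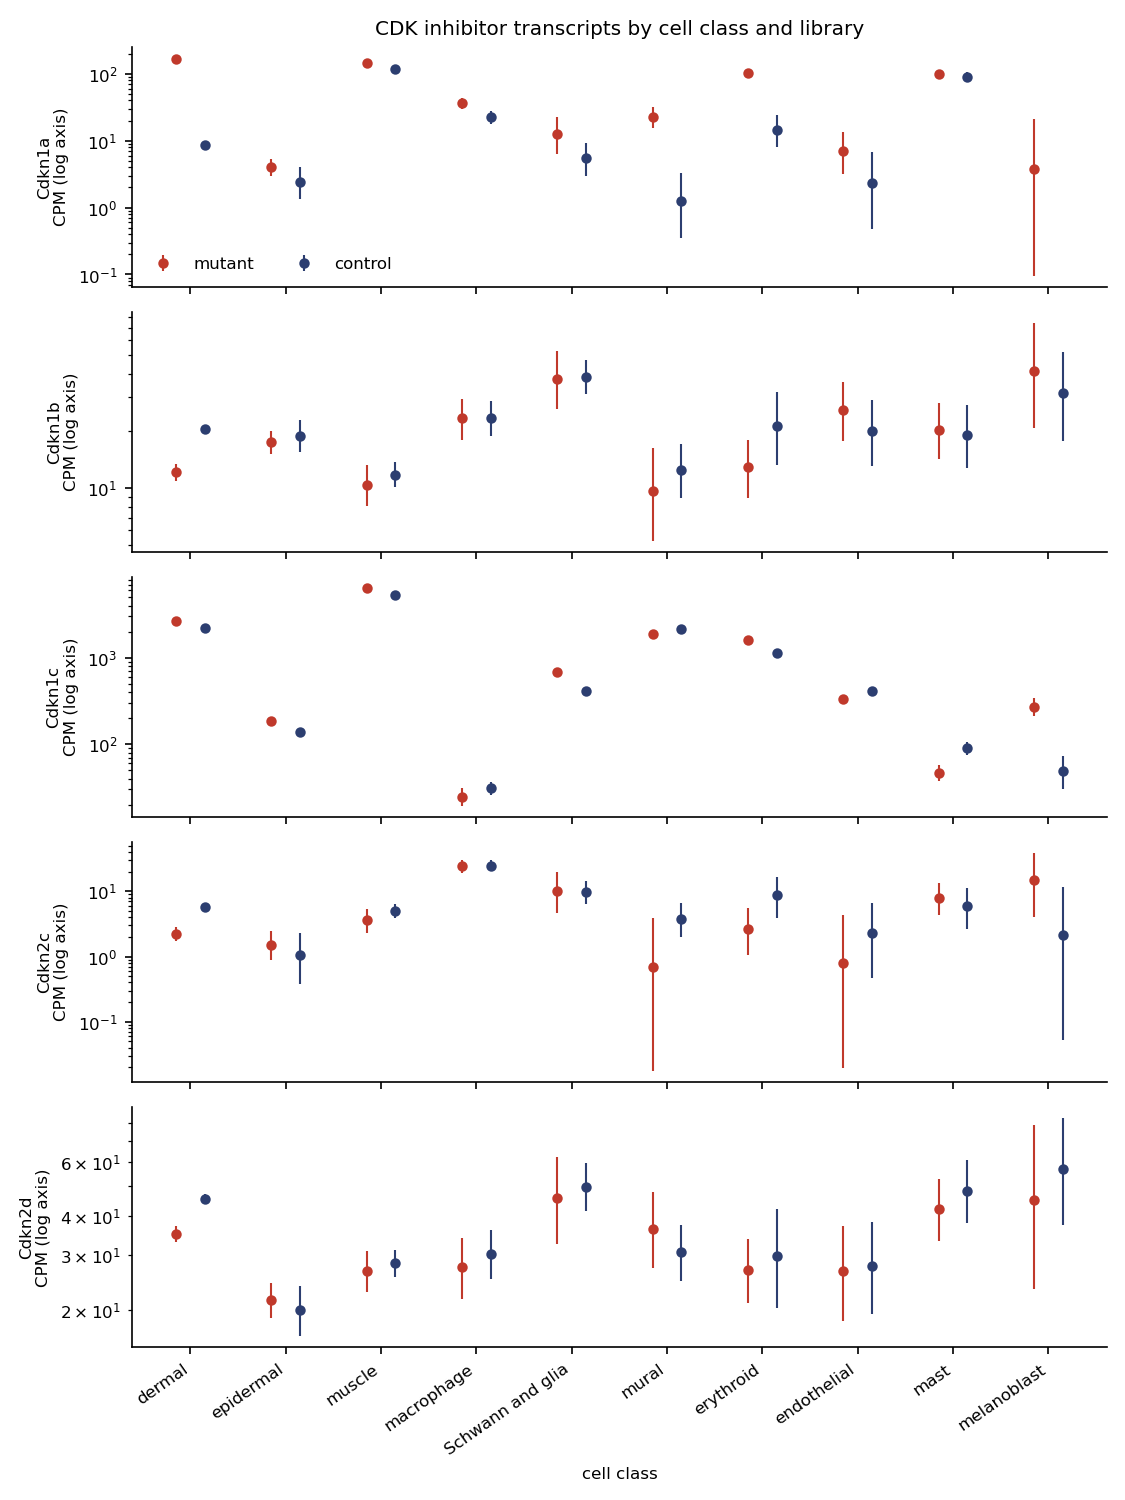
Summed levels of 5 members in CPM (log axes) in the 10 cell classes, mutant in red left of control in blue, with exact 95% Poisson intervals. The Cdkn1a intervals of the libraries lie apart in dermal, mural, erythroid, macrophage and muscle cells, Cdkn1c is highest in muscle in both, and no point is drawn for Cdkn1a in control melanoblast cells, which held 0 UMIs.

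The INK4 genes were scarce, except for Cdkn2d. Cdkn2a had 2 UMIs in the mutant dermis against 11 in the control dermis, and no class of either library held more than 11. Cdkn2b had 40 UMIs in the mutant and 34 in the control dermis, 1.25 against 0.55 CPM. Neither reached the level for a call in any class. Cdkn2c stood at 2.25 CPM in mutant (72 UMIs) and 5.78 CPM in control dermal cells (359 UMIs), under the 10 CPM set for a call, with a ratio of 0.39 (0.30 to 0.50). Its highest sums were in macrophages, at 24.3 CPM in mutant and 24.8 CPM in control cells, and in melanoblasts 4 mutant UMIs and 1 control UMI put it past the fold (7.14, 0.71 to 352). Cdkn2d was present in every class, from 19.9 CPM in control epidermal cells (16.4 to 23.9) to 56.9 CPM in control melanoblast cells (37.5 to 82.8). Its dermal level was 35.1 CPM in mutant and 45.3 CPM (43.7 to 47.0) in control cells, a ratio of 0.77 (0.72 to 0.83). Over the shared clusters the Cdkn2d log2 ratio was 0.01.

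Transcripts of Mki67 and Top2a, which accumulate in dividing cells, gave a second axis. At 3000 UMIs, 40.3% of mutant dermal cells (38.9 to 41.7) and 31.6% of control dermal cells (30.6 to 32.6) had a UMI of either gene. Without thinning the shares were 47.8% and 39.8%. The mutant dermis, with the higher Cdkn1a level, thus also had the larger share of such cells. Epidermal shares were 50.8% in mutant and 43.1% in control cells, and muscle shares 48.4% and 47.7%.

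Members differed in which side of this split they favoured. Cdkn1a in mutant dermal cells stood at 146 CPM in cells with a cycling UMI and 227 CPM in cells without one, a ratio of 0.64 (0.59 to 0.70). In control cells the same values were 9.03 and 9.38 CPM, a ratio of 0.96 (0.72 to 1.28). Cdkn1c was also lower in cycling cells, at 2303 against 3085 CPM in the mutant library and 1621 against 2521 CPM in the control library. The mutant excess of Cdkn1a was present on both sides, 16.2-fold (12.7 to 20.9) among cells with a cycling UMI and 24.2-fold (20.6 to 28.6) among cells without. When cells were split by S phase genes instead, the mutant Cdkn1a log2 ratio was -1.56 in place of -0.64, and the control one was 0.85 in place of -0.06.

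Cdkn1b, Cdkn2c and Cdkn2d lay on the other side, with more transcript in dermal cells holding a cycling UMI. Cdkn1b had 15.9 against 9.68 CPM in the mutant library and 28.4 against 14.7 CPM in the control library. Cdkn2c had 4.02 against 0.59 CPM in the mutant library (6.81-fold, 2.53 to 22.9) and 11.2 against 1.99 CPM in the control library (5.61-fold, 3.74 to 8.60). Cdkn2d was 2.55-fold higher in mutant cells with a cycling UMI (55.7 against 21.8 CPM) and 2.92-fold higher in control cells (76.6 against 26.2 CPM). At this split 5.64% of tested genes were higher and 3.11% lower in the mutant library, and 7.3% higher and 4.29% lower in the control library. All 3 steps were smaller when cells were split by S phase genes instead. The Cdkn1b log2 ratio was then -0.09 in mutant and 0.01 in control cells, in place of 0.72 and 0.95. For Cdkn2d it was 0.13 and 0.40 in place of 1.35 and 1.55, under 1.5-fold in both libraries, and for Cdkn2c 0.90 and 0.93 in place of 2.77 and 2.49.

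In muscle the same split was sharper for Cdkn1a, at 48.5 against 191 CPM in mutant cells (ratio 0.25, 0.18 to 0.35) and 40.9 against 187 CPM in control cells (ratio 0.22, 0.16 to 0.29). This split overlaps with the muscle split by Myog and Pax7. A cycling UMI was held by 30.8% of mutant and 33.0% of control Myog-positive cells, and by 71.1% and 56.1% of progenitors. The parts of cycling and differentiation in the Cdkn1a ratio were not tested. Cdkn2d again went with cycling cells in the epidermis, 3.14-fold in mutant (1.88 to 5.48) and 3.77-fold in control cells (1.53 to 10.5). Macrophage Cdkn2c stood at 50.7 against 17.4 CPM in mutant and 45.6 against 5.03 CPM in control cells, from 30 and 22 UMIs in all.

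**Figure D5:**
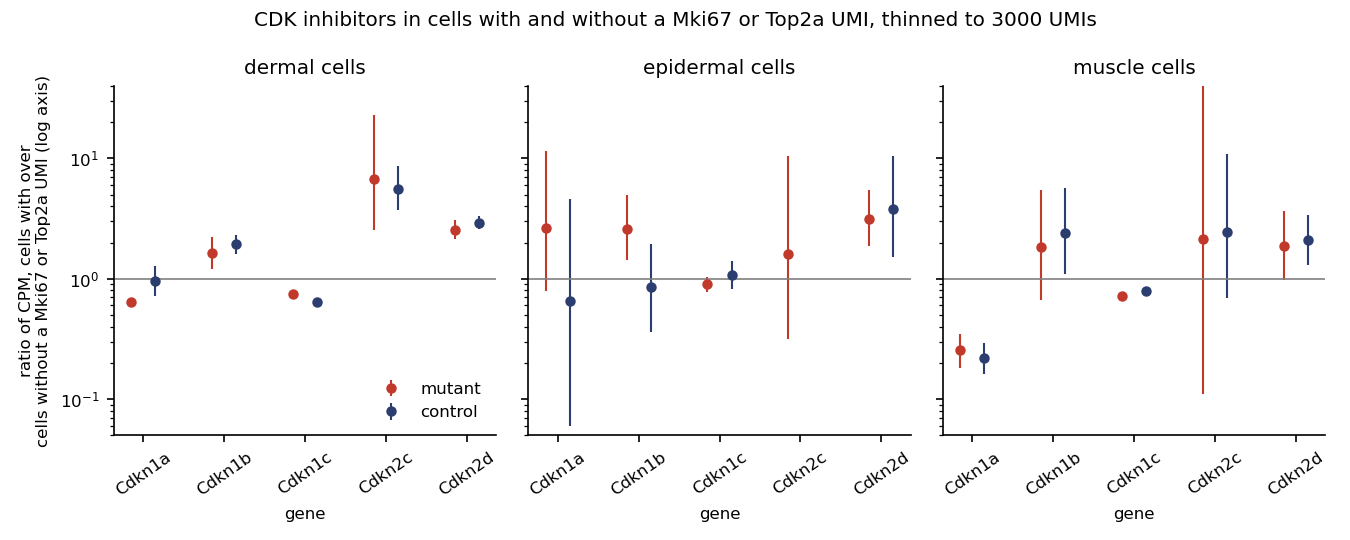
Ratio of CPM (log axis) in cells with over cells without a Mki67 or Top2a UMI for 5 members in dermal, epidermal and muscle cells thinned to 3000 UMIs, mutant in red left of control in blue, with exact conditional binomial 95% intervals. The grey line is a ratio of 1; Cdkn1a and Cdkn1c lie below it in muscle and Cdkn2d above it in all 3 classes, no point is drawn for Cdkn2c in control epidermal cells, which held 0 UMIs on one side, and the upper bar of mutant muscle Cdkn2c runs past the axis.

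The kinases and cyclins that these proteins act on moved less than Cdkn1a. Of 32 genes in the lists of cyclins, CDKs, RB and E2F, and p27 turnover, 27 were tested in dermal cells, 4 were higher and none lower, beside 4.53% of all genes higher and 4.83% lower. The D-type cyclins Ccnd1 and Ccnd2 were 2.05-fold and 1.54-fold higher, at 368 against 179 CPM and 763 against 495 CPM, and the G1/S cyclin Ccne1 was 1.90-fold higher, at 92.3 against 48.6 CPM. None of 7 CDK genes and none of 6 tested RB and E2F genes passed the fold. Of 14 S phase genes only Rrm2, a ribonucleotide reductase subunit, was higher (1.51-fold), and none of 16 G2M genes was, counts near the share over all genes. Among 3 tested TGF-beta targets, Tgfbi was lower, at 13.8 CPM in mutant and 34.7 CPM in control cells. Of 8 tested condensate genes, 6 were higher and 2, Bmp4 (1.88-fold) and Inhba (2.13-fold), lower. The largest were Foxd1 at 79.7 against 0.45 CPM and Gal at 68.6 against 0.53 CPM, with Sox18 at 31.6 against 0.85 CPM, Trps1 at 38.5 against 1.93 CPM, Prdm1 at 13.1 against 3.72 CPM and Tbx18 at 71.3 against 23.5 CPM.

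Across the 20 sums of class and library, the genes with the most similar profile, by Pearson correlation of log2(CPM + 5) among 9252 genes, differed by member, and the sums share libraries and free RNA. Cdkn1a was most like Mthfd2 (0.78), Rprm (0.76) and Cenpv (0.75), a weaker likeness than for the others. Cdkn1c was most like Itm2a (0.96), Pfn2 (0.94) and Svbp (0.93), and Cdkn1b like Mindy2 (0.89), Ubl3 (0.88) and Nlk (0.87). The nearest to Cdkn2c were Acss1 (0.90), Fam234a (0.86) and Mon2 (0.85), and to Cdkn2d Ndfip1, Sars and Plscr1 (0.87, 0.87 and 0.86).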

How the data were processed

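Per gene and barcode, the deposited files give raw UMI counts, which the authors made with Cell Ranger 5.0.1 on mm10, per the submitters' processing notes, and an eYFP feature was added, per the file headers. Per the labels' protocols, dissociation used trypsin (0.25%, 20 minutes, 37 °C) and was followed by sorting of DAPI-stained cells, with both libraries sequenced on 1 lane. The totals were 73809828 UMIs in 11909 mutant barcodes and 109629368 UMIs in 13566 control barcodes. Groups follow the titles.

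Barcodes with under 1000 genes or over 10% mitochondrial UMIs were left out, as were 269 mutant and 591 control doublets (3.06% and 4.88%) called by Scrublet. Cells of both libraries were clustered in scanpy 1.11.5 (2000 variable genes, 30 components, 15 neighbours, Leiden resolution 1.0) with no batch correction and named from 14 marker lists. Further tools were leidenalg 0.10.2, scikit-learn 1.9.0, pandas 2.3.3, scipy 1.17.1, numpy 2.4.6 and matplotlib 3.10.9 in Python 3.11.15.

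UMIs were summed per class and library and scaled to CPM. With 1 library per group no test was possible. Intervals are exact Poisson (CPM), conditional binomial (ratios) and Clopper-Pearson (shares), and they leave out the spread between embryos, which 1 library cannot show. Calls need 10 CPM in either library and a fold of 1.5. Shares, cycling splits and gene splits used cells thinned to 3000 UMIs. Interval coverage was checked on simulated counts.

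All 7 members are named in the report, with every list gene past the fold in the dermis, other than Hedgehog targets. The 3 genes most like a member are named for members with at least 20 CPM in a class sum, which leaves out Cdkn2a and Cdkn2b. A Hedgehog target list and a split of dermal cells by it are not reported here. Further genes in the text serve as values outside this rule. The members and lists were chosen with earlier results of these data known. Features were matched to GENCODE M21 (32158 matched, 128 not). Alternatives tried were other filters, weights, thinning depths, clusterings, folds and cycling splits.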

Additional observations from a re-analysis of the deposited data

Results flagged for a closer look

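Cdkn1c was higher in mutant Schwann and glia cells (log2 ratio 0.72) and lower in mutant mast cells (-0.95), and it was higher in mutant melanoblast cells (2.48). These opposite directions between cell classes of the same pair of libraries drew attention, and the difference between the classes was not tested. Each rests on 1 library per group. A single mutant melanoblast held 36 of the 72 Cdkn1c UMIs of its class and library. A single control mast cell held 28 of 138. Dermal markers also differed between the libraries, at 811 and 593 CPM in mutant and control Schwann and glia cells. In mast cells they summed to 45.0 and 158 CPM, and in melanoblasts to 26.3 and 54.8 CPM. The part of dermal RNA in these Cdkn1c ratios was not tested.

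Barcodes left out of the report for having under 1000 genes also held members of the family. Those with under 50% hemoglobin UMIs, 639 mutant and 1037 control barcodes, had 133 CPM (mutant) against 18.3 CPM (control) of Cdkn1a once hemoglobin was set aside. Their Cdkn1c stood at 1758 CPM (mutant) against 1481 CPM (control).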

How the results depend on the processing

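Directions in the dermis held for Cdkn1a, Cdkn1b and Cdkn1c under every alternative run. The cause of a shift was not tested unless stated. The Cdkn1a log2 ratio, 4.28 over all dermal cells, was 3.93 at 2000 or more genes, 4.53 with equal weight per cell, 4.68 in cells without a Mki67 or Top2a UMI and 2.46 in clusters with at least 50 cells of both libraries, an alternative chosen after seeing the data. The value of 2.46 lies below the ratio of each single shared cluster. In those clusters Cdkn1b was -0.49 and Cdkn1c 0.93, with 2 members higher and 0 lower. Cdkn1c, 0.29 over all dermal cells, was 0.30 with equal weight, 0.31 when thinned to 3000 UMIs, 0.31 at resolution 2.0, 0.33 with no gene left out of the clustering and 0.26 in cells without a cycling UMI. At a fold of 2, 0 members were lower and 1 pathway gene was higher, in place of 1 and 4.

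For cycling over other dermal cells, splitting by S phase genes gave -1.56 (Cdkn1a), -0.091 (Cdkn1b, turned round from 0.72) and -0.26 (Cdkn1c) in mutant cells, and 0.85 (Cdkn1a) and 0.0061 (Cdkn1b) in control cells. Without thinning, mutant Cdkn1a was -0.85 and Cdkn1c -0.46. Requiring both genes gave Cdkn1b 1.19 in mutant and 1.34 in control cells and Cdkn1c -0.68 in control cells, where thinning to 2000 UMIs gave -0.58 and keeping doublets -0.60. Mutant Cdkn2b, from few UMIs, turned to -0.41 when thinned to 2000 UMIs. The condensate step at 2000 UMIs was 2.63 for Cdkn1a and -0.67 for Cdkn1c. Of 211 values recomputed, 159 stayed within the main value's error and 52 did not, and 7 log2 ratios changed sign. Beside the 2 named as turned round and control Cdkn1a by S phase genes, these were control cycling Cdkn1a at 2000 UMIs (0.022), dermal Cdkn2b (-0.073) and Cdkn2d (0.011) over the shared clusters, and dermal Cdkn2a in cells without a cycling UMI (0.26). No paired analysis was possible because each group had 1 library, and for the same reason no replicate could be left out. Few UMIs limit Cdkn2a (at most 11 in a class) and Cdkn2b (at most 40). Cdkn2c reached the 10 CPM set for a call only in macrophages, Schwann and glia cells and melanoblasts; in the dermis that level, and not depth, leaves it without a call.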
